A study of Mus musculus with 2 samples.

Results

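The 8 genes described here, Spi1, Cebpa, Cebpb, Cebpe, Gfi1, Irf8, Runx1 and Klf4, encode transcription factors of the myeloid lineage. They were chosen by name and not by their values, and all 8 were among the 32285 genes of both count tables. Single cells of mouse fetal liver were profiled by droplet-based RNA sequencing in IκBα WT and IκBα KO E14.5 embryos of the CD1 stock, with 1 library per genotype. The cells were sorted as LSK cells (lineage-negative, SCA1-positive, cKIT-positive) after lineage depletion, whereas the sample titles name LT-HSCs. Per the study's methods, CD11b, a surface protein of myeloid cells, was left out of the lineage depletion. The WT library was made from 2 pooled embryos and the KO library from 3, so that differences between embryos cannot be told apart from differences between genotypes. The KO line carries a targeted Nfkbia allele (Nfkbia tm1Bal) in all cells, and CD1 is an outbred stock. The study's matings also used Gfi1:tomato animals, and whether the embryos of these libraries carried that allele is not stated.

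In blood formation, myeloid cell fate is set by a small group of transcription factors that act at different stages. Runx1 and PU.1 (encoded by Spi1) act from the stem cell onwards, C/EBPα opens the granulocyte and monocyte path, C/EBPε and GFI1 act in the granulocyte branch, and IRF8 and KLF4 act in the monocyte branch. C/EBPβ drives granulocyte production under stress and is active in monocytes and macrophages, and IκBα, the protein missing in the KO, holds NF-κB factors in the cytoplasm.

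On GRCm38, per GENCODE vM21, all 8 are protein-coding genes. Spi1 lies at chr2:91082390-91115756 on the plus strand, Cebpb at chr2:167688915-167690418 (plus, with 1 exon), Klf4 at chr4:55527143-55532466 (minus), Gfi1 at chr5:107716657-107726036 (minus), Cebpa at chr7:35119293-35121928 (plus), Irf8 at chr8:120736358-120756694 (plus), Cebpe at chr14:54710360-54712174 (minus) and Runx1 at chr16:92601466-92826149 (minus). The targeted gene Nfkbia lies at chr12:55489410-55492647 (minus). Because UMIs were counted near the 3′ end of transcripts, the counts do not separate start sites of these genes.

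RefSeq promoter windows on GRCm38.p6 were present for 6 of the 8 genes, with 9 windows in all, and the 250 bases before each start were searched on both strands for 7 motifs. The 4 windows printed here are those that hold a match (in capitals). The windows lie at chr8:120736108-120736357 (Irf8, plus), chr4:55532476-55532725 (Klf4, minus), chr2:167688665-167688914 (Cebpb, plus) and chr5:107725806-107726055 (Gfi1, minus), and each is written 5′ to 3′ towards the start of the gene.
Irf8: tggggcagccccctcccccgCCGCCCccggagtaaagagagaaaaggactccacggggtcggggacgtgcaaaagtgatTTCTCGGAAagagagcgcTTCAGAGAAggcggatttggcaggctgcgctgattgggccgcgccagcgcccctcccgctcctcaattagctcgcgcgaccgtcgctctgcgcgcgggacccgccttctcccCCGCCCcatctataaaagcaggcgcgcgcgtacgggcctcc
Klf4: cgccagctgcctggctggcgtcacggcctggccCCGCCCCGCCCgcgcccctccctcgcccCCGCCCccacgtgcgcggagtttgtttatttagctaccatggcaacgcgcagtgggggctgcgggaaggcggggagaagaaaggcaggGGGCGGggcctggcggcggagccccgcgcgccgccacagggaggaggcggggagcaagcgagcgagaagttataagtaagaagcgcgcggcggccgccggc
Cebpb: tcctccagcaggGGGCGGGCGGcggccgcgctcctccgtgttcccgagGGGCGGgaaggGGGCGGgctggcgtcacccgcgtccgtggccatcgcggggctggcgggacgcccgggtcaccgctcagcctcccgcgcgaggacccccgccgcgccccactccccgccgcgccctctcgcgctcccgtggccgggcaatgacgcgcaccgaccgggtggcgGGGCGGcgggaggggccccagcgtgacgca
Gfi1: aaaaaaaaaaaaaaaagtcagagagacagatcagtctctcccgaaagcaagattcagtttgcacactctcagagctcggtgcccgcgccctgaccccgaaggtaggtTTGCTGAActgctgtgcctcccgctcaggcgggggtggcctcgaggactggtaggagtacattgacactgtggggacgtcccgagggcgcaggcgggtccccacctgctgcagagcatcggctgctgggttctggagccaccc
In the Irf8 window, 2 capital runs match the STAT (GAS) motif TTCNNNGAA, at 171 to 163 and at 153 to 145 bases before the start, and 2 match the GC box GGGCGG on the other strand, where it reads CCGCCC. The Klf4 window holds 4 GC boxes and the Cebpb window 5, some of which overlap or touch and so form longer capital runs. The Gfi1 window holds 1 match to the C/EBP motif TTGCNNAA, at 143 to 136 bases before the start. Of all 32851 windows of this length, 7.02% hold the GAS motif, 32.7% a GC box and 9.56% the C/EBP motif. The κB motif GGGNNTTTCC (1.41% of windows), the PU.1 motif GAGGAAGT (2.44%), the RUNX motif ACCACA (14.1%) and the IRF motif GAAANNGAAA (2.98%) had 0 matches in the 9 windows, which says only that these letters are not there. The windows hold no overlap of 2 different motifs, and a match describes letters and not a bound site.

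The WT library held 3840 barcodes and 109122324 UMIs, and the KO library 4928 barcodes and 100029143 UMIs. Filters left 3458 and 4417 cells, whose median depths of 28065 and 19560 UMIs stood at a ratio of 1.43, and 7 barcodes occurred in both libraries. Nfkbia was counted 1478 times in the WT library and 7 times in the KO library. Male cells, taken as those with Y-linked UMIs but no Xist, were 0.116% of the WT and 17.4% of the KO library. By marker genes, 48.8% of WT and 52.2% of KO cells were erythroid although LSK cells had been sorted, and 40.3% and 32.0% fell into the 5 classes used here. Among these, the defining LSK gene Ly6a (SCA1) was at 23.7 CPM in WT and 25.5 in KO stem-cell-like cells, 3.31 and 1.98 CPM in early granule cells, and 4.93 and 27.8 CPM in monocyte/dendritic-like cells. CPM is a gene's summed UMIs divided by all UMIs of the class, on the usual CPM scale. All intervals are exact 95% intervals that cover counting error only, and no test could be made with 1 library of each genotype.

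Classes were gated on marker genes that include none of the 8 factors. Stem-cell-like cells (Hlf, Mecom, Procr) comprised 693 WT and 653 KO cells, with median depths of 17198 and 12089 UMIs. The Cd34 gate (Cd34, Sox4, Cd48, Flt3, Adgrl4, Satb1), meant for multipotent cells, comprised 492 and 507 cells, but its leading genes were lymphoid (Trbc2, Trbc1, Ighm, Il7r) and none of its markers was among the 10 leading genes, so that it is called by its gate. Early granule cells (Elane, Ctsg, Ms4a3) comprised 101 and 135 cells, and their leading genes included the eosinophil granule genes Prg3 and Prg2 and the histamine enzyme Hdc. Mpo and Prtn3, markers of that stage which the gate did not use, were higher in the next class in both libraries. So was the summed level of the gate genes. On the scale used for gating, its median was 15.0 in WT and 15.3 in KO early granule cells. In the next class it was 105 and 113. Ctsg and Ms4a3 were among the 10 leading genes of early granule cells, but Elane was among those of the next class. The names of both classes thus stand for their gates and not for an order of granule stages. Maturing-neutrophil-like cells (S100a8, S100a9) comprised 39 and 52 cells, and 6 of 7 neutrophil markers outside the gate were highest there in both libraries, with Mmp8 at 0. Monocyte/dendritic-like cells (12 genes, among them Csf1r, Ly6c2, Ccr2, Cd74 and H2-Aa) comprised 68 and 68 cells. Late erythroid cells, 653 and 1061 in number with median depths of 22637 and 16884 UMIs, served as the class that should lack these factors.

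Spi1 encodes PU.1, an ETS factor that monocytes, granulocytes and lymphoid progenitors need. Spi1 was found in all 5 classes, and its level was higher in each class from stem-cell-like to monocyte/dendritic-like cells in both libraries. In WT cells it was at 148 CPM (142 to 155) in stem-cell-like cells, 175 CPM (168 to 182) in the Cd34 gate, 261 CPM (245 to 279) in early granule cells, 310.5 CPM (279 to 345) in maturing-neutrophil-like cells and 346 CPM (323 to 371) in monocyte/dendritic-like cells. In KO cells the same classes were at 139 CPM (132 to 148), 157 CPM (149 to 165), 296 CPM (278 to 314), 323 CPM (290.4 to 359) and 388 CPM (357 to 421). The highest class was 2.34-fold above the lowest in WT and 2.78-fold in KO. The intervals of monocyte/dendritic-like and maturing-neutrophil-like cells overlapped in both libraries, as did those of maturing-neutrophil-like and early granule cells in KO. Cells were thinned to 8000 UMIs each before cells with a UMI were counted, so that depth was equal. Spi1 then had a UMI in 70.2% of WT and 65.3% of KO stem-cell-like cells and in 91.2% and 90.8% of monocyte/dendritic-like cells, against 3.44% and 4.47% of late erythroid cells.

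Runx1 encodes the DNA-binding subunit of core binding factor, which is required for the emergence of blood stem cells. It stayed near the same level in 4 of the 5 classes and was lower in maturing-neutrophil-like cells. In WT cells Runx1 was at 92.8 CPM (87.6 to 98.2) in stem-cell-like cells, 99.3 CPM (94 to 105) in the Cd34 gate, 112 CPM (102 to 124) in early granule cells, 55.3 CPM (42.4 to 70.9) in maturing-neutrophil-like cells and 102 CPM (89.3 to 115) in monocyte/dendritic-like cells. In KO cells the values were 89.5 CPM (83.3 to 96.1), 93.6 CPM (87.6 to 99.97), 92.8 CPM (83.1 to 103), 47.0 CPM (35 to 61.8) and 93.5 CPM (78.6 to 110.5). Maturing-neutrophil-like cells were lowest in both libraries, 2.03-fold below the highest class in WT and 1.99-fold in KO, and the intervals of all other neighbours in the order overlapped. After thinning, Runx1 was present in 45.0% of WT and 46.3% of KO stem-cell-like cells and in 7.04% and 9.03% of late erythroid cells.

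Cebpa encodes C/EBPα, whose loss blocks granulocyte formation. It was close to absent from stem-cell-like cells and peaked in early granule cells. In WT cells Cebpa was at 2.10 CPM (27 UMIs) in stem-cell-like cells, 9.65 CPM (8.05 to 11.5) in the Cd34 gate, 44.1 CPM (37.5 to 51.5) in early granule cells, 11.6 CPM (13 UMIs) in maturing-neutrophil-like cells and 19.7 CPM (14.55 to 26.2) in monocyte/dendritic-like cells. In KO cells it was at 1.53 CPM (13 UMIs), 9.05 CPM (7.25 to 11.2), 44.7 CPM (38 to 52.3), 14.7 CPM (16 UMIs) and 17.6 CPM (11.5 to 25.8). Early granule cells were 21.0-fold above stem-cell-like cells in WT and 29.2-fold in KO, and the intervals of the Cd34 gate, maturing-neutrophil-like and monocyte/dendritic-like cells overlapped from neighbour to neighbour. After thinning, Cebpa was present in 22% of WT and 30.6% of KO early granule cells and in 1.06% and 0.569% of stem-cell-like cells.

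Cebpb encodes C/EBPβ. Its level was similar in stem-cell-like cells and the Cd34 gate and higher from early granule cells onwards. In WT cells Cebpb was at 57.5 CPM (53.5 to 61.8) in stem-cell-like cells, 58.4 CPM (54.4 to 62.6) in the Cd34 gate, 116 CPM (105 to 128) in early granule cells, 194 CPM (169 to 221) in maturing-neutrophil-like cells and 194 CPM (177 to 213) in monocyte/dendritic-like cells. In KO cells it was at 56.5 CPM (51.6 to 61.8), 50.9 CPM (46.5 to 55.6), 119 CPM (108 to 131), 193 CPM (167 to 220) and 256 CPM (231 to 283). In KO the monocyte/dendritic-like cells thus stood above the maturing-neutrophil-like cells, whereas in WT both intervals overlapped. After thinning, Cebpb was present in 35.0% of WT and 36.8% of KO stem-cell-like cells, against 7.36% and 9.32% of late erythroid cells.

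Cebpe encodes C/EBPε, which switches on secondary granule genes. In these 5 classes it was found almost only in early granule and maturing-neutrophil-like cells. Only 4 WT and 2 KO UMIs were counted in stem-cell-like cells, and 16 and 5 UMIs in the Cd34 gate. Early granule cells were at 181 CPM (168 to 196) in WT against 183 CPM (169 to 198) in KO, and maturing-neutrophil-like cells at 333 CPM (300 to 368) and 382 CPM (346 to 421). Monocyte/dendritic-like cells held 10 WT and 3 KO UMIs. After thinning, Cebpe was present in 43% of WT and 50% of KO early granule cells and in 86.5% of maturing-neutrophil-like cells of both libraries. In the Cd34 gate it was present in 0.207% of WT cells and in 0 of 484 KO cells, which allows up to 0.759% of cells with a UMI at that depth, whereas without thinning 1.83% of WT and 0.789% of KO cells of the gate had a Cebpe UMI. The early granule class was uneven, since the tenth of its cells with the most Cebpe held 57.3% of the Cebpe UMIs in WT and 46.4% in KO.

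Gfi1 encodes a zinc finger repressor that restrains stem cell cycling and opposes monocyte genes in granulocyte precursors. Its level was lower in the Cd34 gate than in stem-cell-like cells and higher again in the neutrophil branch. In WT cells Gfi1 was at 25.3 CPM (22.6 to 28.2) in stem-cell-like cells, 8.0 CPM (6.56 to 9.67) in the Cd34 gate, 30.05 CPM (24.7 to 36.2) in early granule cells and 66.0 CPM (51.8 to 82.9) in maturing-neutrophil-like cells. In KO cells it was at 26.2 CPM (22.9 to 29.9), 7.28 CPM (5.68 to 9.20), 29.4 CPM (24.1 to 35.7) and 74.6 CPM (59.3 to 92.7). Only 6 WT and 4 KO UMIs were counted in monocyte/dendritic-like cells. The intervals of stem-cell-like and early granule cells overlapped in both libraries, while those of the Cd34 gate lay below both. After thinning, Gfi1 was present in 19.5% of WT and 15.4% of KO stem-cell-like cells, in 5.79% and 4.96% of the Cd34 gate, in 40.5% and 46.2% of maturing-neutrophil-like cells and in 0.939% and 1.26% of late erythroid cells.

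Irf8 encodes an interferon regulatory factor needed for monocytes and dendritic cells, and its loss shifts precursors to granulocytes. Irf8 was low in stem-cell-like cells, intermediate in the Cd34 gate and the neutrophil branch and highest in monocyte/dendritic-like cells. In WT cells it was at 9.17 CPM (7.59 to 11) in stem-cell-like cells, 44.5 CPM (41 to 48.2) in the Cd34 gate, 69.7 CPM (61.4 to 78.9) in early granule cells, 58 CPM (44.8 to 73.9) in maturing-neutrophil-like cells and 427 CPM (402 to 454) in monocyte/dendritic-like cells. In KO cells it was at 8.85 CPM (6.96 to 11.1), 31.4 CPM (28 to 35.2), 82.1 CPM (72.9 to 92.1), 39.6 CPM (28.7 to 53.4) and 363 CPM (333 to 395). Monocyte/dendritic-like cells were 46.6-fold above stem-cell-like cells in WT and 41.1-fold in KO. The intervals of the Cd34 gate and maturing-neutrophil-like cells overlapped in both libraries. Few maturing-neutrophil-like cells carried that level: 13.5% of WT and 9.62% of KO cells had Irf8 after thinning, and 17.9% and 13.5% without thinning. In the Cd34 gate Irf8 was present, after thinning, in 16.5% of WT and 13.02% of KO cells, and the tenth of cells with the most Irf8 held 78.6% and 86.7% of its UMIs. By comparison, 86.8% and 86.2% of monocyte/dendritic-like cells and 0.626% and 1.07% of late erythroid cells had an Irf8 UMI.

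Klf4 encodes a zinc finger factor of the monocyte branch. Klf4 was rare outside monocyte/dendritic-like cells. It was at 2.49 CPM in WT against 2.83 CPM in KO stem-cell-like cells, with 32 and 24 UMIs, and at 1.87 and 1.98 CPM in the Cd34 gate, with 25 and 19 UMIs. Early granule cells held 7 and 15 UMIs, and maturing-neutrophil-like cells 7 and 11. Monocyte/dendritic-like cells were at 44.4 CPM (36.4 to 53.6) in WT against 68.4 CPM (55.7 to 83.2) in KO, which was 23.7-fold and 34.6-fold above the Cd34 gate, the lowest class. The intervals of the other 4 classes overlapped from neighbour to neighbour.

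**Figure D1:**
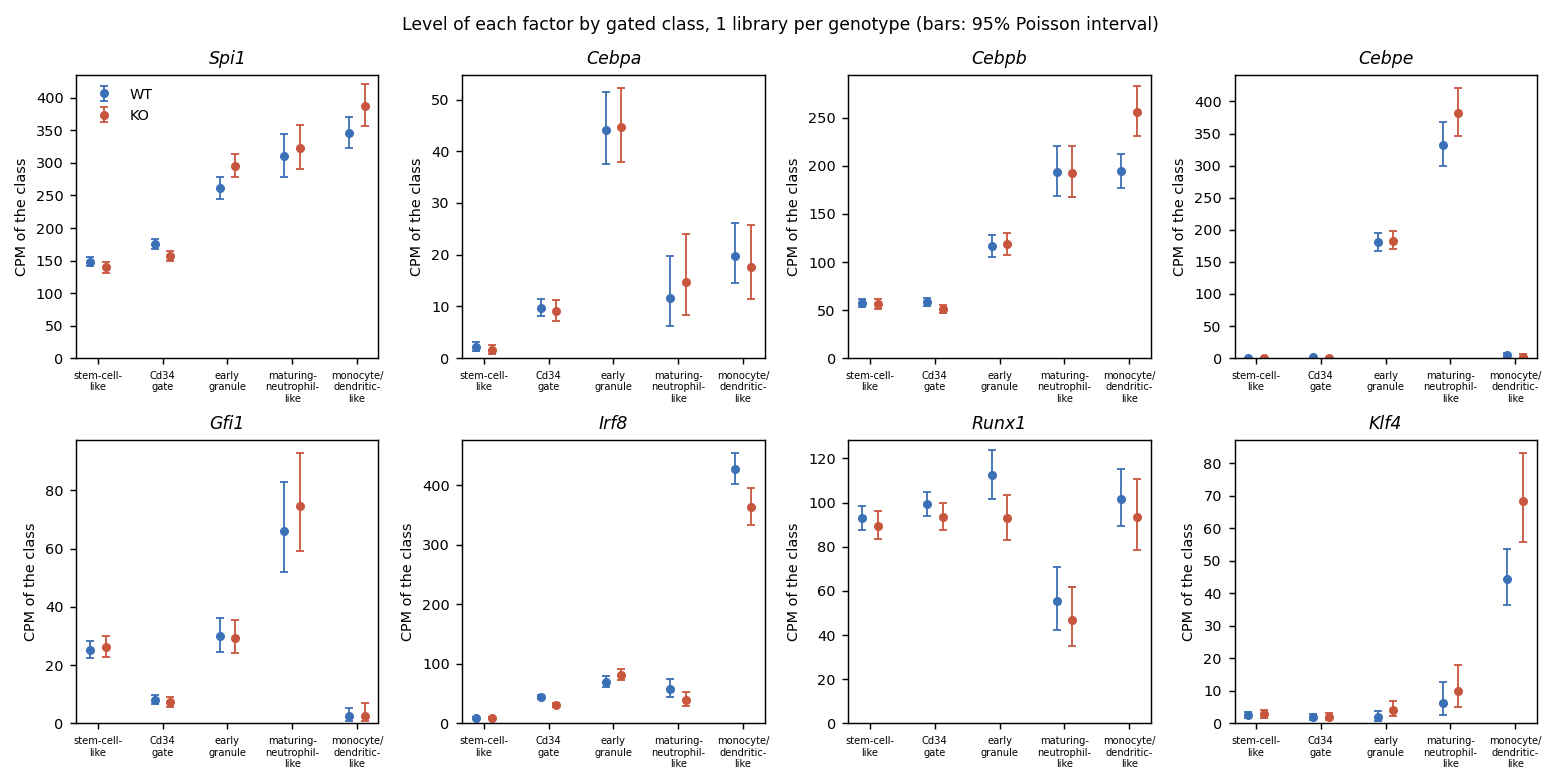
Each panel plots a factor's level in CPM of the class (linear axis from 0) against the 5 gated classes, with WT and KO side by side and bars for the 95% Poisson interval of counting error. Runx1 stays between 47.0 and 112 CPM, Cebpe is found mostly in the early granule and maturing-neutrophil-like classes among these 5, and Irf8 and Klf4 peak in monocyte/dendritic-like cells.

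**Figure D2:**
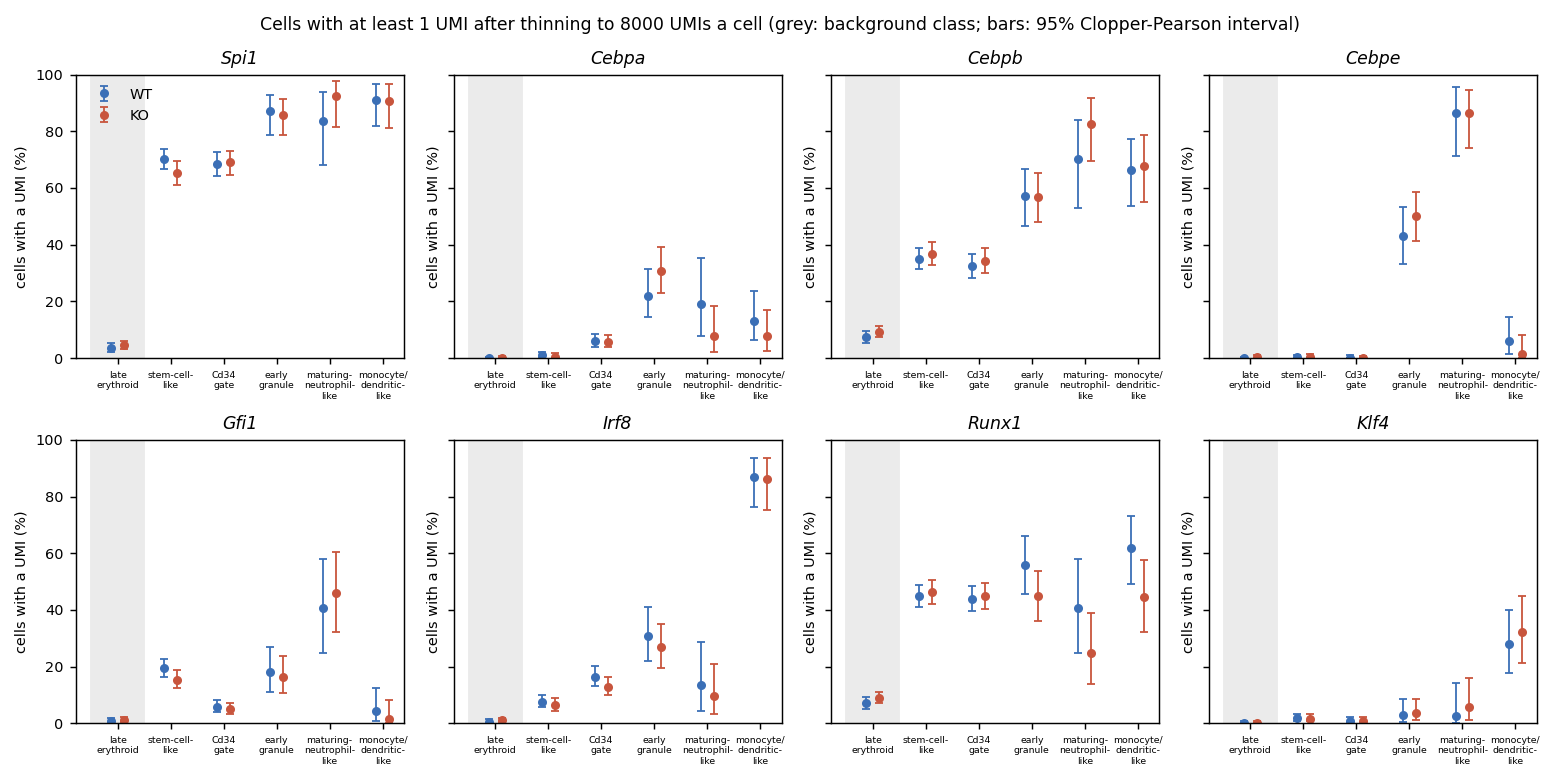
Each panel plots the percentage of cells with at least 1 UMI of a factor after thinning to 8000 UMIs, for WT and KO, with 95% Clopper-Pearson bars; the grey column is the late erythroid background class. Spi1 is found in 65.3% to 92.3% of cells in all 5 classes, whereas Klf4 exceeds 6% only in monocyte/dendritic-like cells.

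A cell with a UMI of several factors was common in the later classes. After thinning, the median number of the 8 factors found per cell was 2 in stem-cell-like cells and the Cd34 gate, 3 in early granule and maturing-neutrophil-like cells, 4 in monocyte/dendritic-like cells and 0 in late erythroid cells, and each median was the same in WT and KO. At least 4 factors were found in 4.41% of WT and 3.23% of KO stem-cell-like cells and in 5.37% and 3.72% of the Cd34 gate. The share was 33% (23.9 to 43.1) in WT and 36.6% (28.4 to 45.3) in KO early granule cells, 48.6% and 48.1% in maturing-neutrophil-like cells and 54.4% and 52.3% in monocyte/dendritic-like cells.

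KO and WT cells were then compared within each class, since IκBα restrains NF-κB and the comparison asks whether the factors' levels differ without it. A gene was given a log2 KO/WT ratio of its CPM where both libraries together held at least 20 UMIs, and it was called higher or lower past 1.5-fold. The factors without a ratio were Cebpe in stem-cell-like cells (4 WT and 2 KO UMIs), Klf4 in maturing-neutrophil-like cells (7 and 11) and Cebpe and Gfi1 in monocyte/dendritic-like cells (10 and 3, and 6 and 4). In stem-cell-like cells, 0 of 7 factors were called, while 3.19% of the 11740 genes with a ratio were called higher and 4.05% lower. Within the Cd34 gate, 0 of 8 were called higher and 1 lower (Cebpe), against 3.95% and 2.82% of 11351 genes. In early granule cells, 1 of 8 was called higher (Klf4) and 0 lower, against 4.46% and 4.34% of 9476 genes. In maturing-neutrophil-like cells, 0 of 7 were called, against 6.35% higher and 8.49% lower of 7044 genes. In monocyte/dendritic-like cells, 1 of 6 was called higher (Klf4) and 0 lower, against 7.88% and 5.94% of 8688 genes. Such calls fall mostly on genes with few UMIs: 32.1% to 40.2% of genes with 20 to 40 UMIs in a class lay past 1.5-fold, against 1.46% to 3.70% of those with at least 100. The median log2 ratio of the factors was -0.05, -0.15, 0.02, 0.06 and 0.02 in the order of the classes above, and that of all genes with a ratio 0.01, 0.04, 0.02, -0.01 and 0.03.

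**Figure D3:**
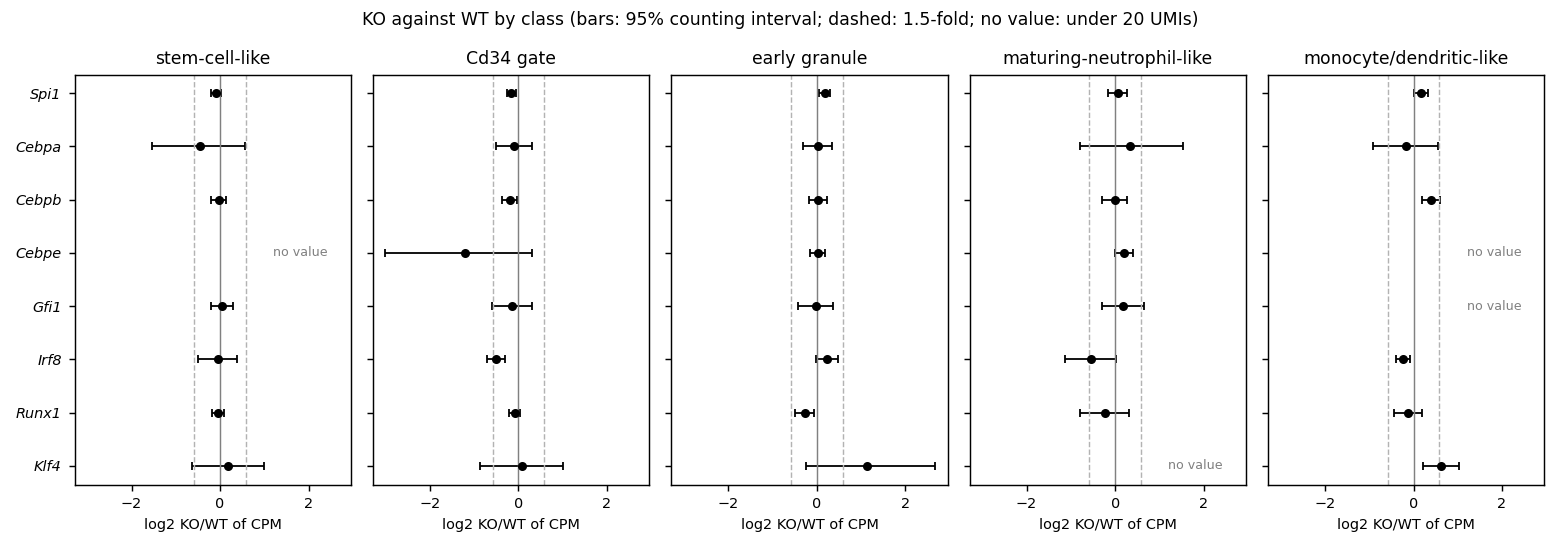
Each panel plots the log2 KO/WT ratio of CPM of the factors in a class, with bars for the 95% counting interval, a solid line at 0, dashed lines at 1.5-fold and "no value" where fewer than 20 UMIs were counted. The ratios of Klf4 in early granule and monocyte/dendritic-like cells and of Cebpe in the Cd34 gate lie past 1.5-fold, and only the monocyte/dendritic-like value of Klf4 among these has an interval without 0.

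In stem-cell-like cells, the factors with many UMIs were close between the libraries. Spi1 had a log2 ratio of -0.09 (-0.20 to 0.02), Runx1 of -0.05 (-0.19 to 0.08), Cebpb of -0.03 (-0.19 to 0.14) and Gfi1 of 0.05 (-0.20 to 0.30). For Cebpa the interval, -1.53 to 0.55, was wide because 27 WT and 13 KO UMIs stood behind it. No factor of this class had an interval without 0.

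Irf8 showed the largest difference in the Cd34 gate among the factors with at least 100 UMIs there. It had 595 WT and 302 KO UMIs, 44.5 CPM against 31.4 CPM, and a log2 KO/WT ratio of -0.50 (-0.71 to -0.30). With gate thresholds at 0.5 times the ratio was -1.15, and with graph clusters in place of the gates it was -0.16, where the share of cells with Irf8 after thinning was 3.29 percentage points higher in KO. Csf1r, the receptor for macrophage colony-stimulating factor, which also marks cells of the monocyte gate, was lower in KO in the same class, with 139 WT and 57 KO UMIs and a log2 ratio of -0.81 (-1.28 to -0.35). It was named as a receptor that passed 1.5-fold, and the 8 monocyte markers of the class summed to 93.2 CPM in WT against 87.8 CPM in KO, a log2 ratio of -0.09 (-0.21 to 0.04). Within that list Ms4a6c was lower in KO, with a log2 ratio of -0.62 (-1.16 to -0.09), while Ly86 was higher, at 0.97 (0.22 to 1.74), and Lyz2 was at -0.01. Spi1 had a log2 ratio of -0.16 (-0.25 to -0.06) and Cebpb of -0.20 (-0.36 to -0.03), both under 1.5-fold. Cebpe, with a log2 ratio of -1.20 (-3.00 to 0.31), rested on 16 UMIs from 9 cells in WT and 5 from 4 cells in KO. The 7 eosinophil granule markers summed to 7.63 CPM in WT against 3.23 CPM in KO (102 and 31 UMIs). Most of the difference came through Prg2 (36 and 7 UMIs) and Ear6 (27 and 2), whereas Il5ra had 12 and 11 and Epx 3 and 4. The part of these markers in the Cebpe value was not tested. The summed lymphoid markers of the class were at 259 CPM in WT against 253 CPM in KO.

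In early granule cells, the granulocyte factors Cebpa, Cebpe and Gfi1 had log2 ratios of 0.02, 0.02 and -0.03. Runx1 was lower in KO, at 92.8 against 112 CPM and a log2 ratio of -0.28 (-0.49 to -0.06), but at 0.00 with gate thresholds at 2 times. Spi1 was higher in KO, with a log2 ratio of 0.18 (0.05 to 0.31). Irf8 had a log2 ratio of 0.24 (-0.01 to 0.48), which was -0.14 with graph clusters and -0.02 with WT cells thinned to the KO depth. Klf4, with 7 WT and 15 KO UMIs, had a log2 ratio of 1.14 (-0.24 to 2.67), and 7 of the 15 KO UMIs came from 1 cell. The 8 monocyte markers summed to 374 CPM in WT against 476 in KO in this class, mostly through Lyz2 (172 against 263 CPM), while Ly6c2 had a log2 ratio of -0.34 (-0.71 to 0.02). The 6 mast cell and basophil markers summed to 142 CPM in WT against 93.1 CPM in KO, a log2 ratio of -0.61, mostly through Cpa3. The part of both lists in the ratios of the factors was not tested. Nfkbia had 67 UMIs in this class in WT and 3 in KO, the only one of the 5 classes with any in KO.

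In maturing-neutrophil-like cells, Cebpe had a log2 ratio of 0.20 (-0.01 to 0.41), Gfi1 of 0.18, Spi1 of 0.06 and Cebpb of -0.01. Irf8 had 65 WT and 43 KO UMIs and a log2 ratio of -0.55 (-1.14 to 0.03), which turned to 0.17 with gate thresholds at 0.5 times. The ratio of Irf8 was -0.10 for the mean of CPM per cell and -0.21 among female cells. Eosinophil markers summed to 5 UMIs for WT and 96 for KO in this class, but 72 of 75 Prg2 UMIs came from 1 KO cell, and their part in the ratios was not tested.

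In monocyte/dendritic-like cells, Klf4 was the only factor past 1.5-fold, and Cebpb (1.32-fold higher in KO) and Irf8 (1.18-fold lower) stayed under it with intervals that did not hold 0. Cebpb had 473 WT and 378 KO UMIs, 194 against 256 CPM, and a log2 ratio of 0.40 (0.20 to 0.60), with values from 0.29 to 0.45 under the alternatives. Klf4 had 108 UMIs, from 35 cells, in WT against 101 UMIs, from 32 cells, in KO, and a log2 ratio of 0.62 (0.22 to 1.03), which is 1.54-fold. With gate thresholds at 0.5 times, WT cells thinned to the KO depth, or female cells only, the ratio of Klf4 was 0.44, 0.49 and 0.38 and thus under 1.5-fold. Irf8 had 1040 WT and 536 KO UMIs and a log2 ratio of -0.24 (-0.39 to -0.08), which ranged from -0.41 with gate thresholds at 2 times to -0.08 with graph clusters. Spi1 had a log2 ratio of 0.16 (0.01 to 0.32) and Runx1 of -0.12. The 8 monocyte markers, all but Lyz2 and Fn1 genes of the gate, summed to 1374 CPM in WT against 2548 CPM in KO. That is a log2 ratio of 0.89, mostly through Lyz2 (580.3 against 1674 CPM), and 0 of the 8 were at 0. The others had log2 ratios of -0.04 (Csf1r), 0.02 (Ms4a6c), 0.07 (Ccr2), 0.24 (Ly6c2), 0.26 (Ly86), 0.38 (F13a1) and 1.72 (Fn1, 10 and 20 UMIs). The 10 dendritic markers summed to 270 CPM in WT against 331 CPM in KO, a log2 ratio of 0.29, with 1 of 10 at 0. Most of this came through Cd74 (97.0 against 150 CPM), and H2-Eb1 (0.63) and H2-Ab1 (0.30) were also higher in KO. H2-Aa was at 50.1 CPM in both libraries and Batf3 at -0.02, while Siglech (-0.86) and Flt3 (-0.57) were lower. Clec9a and Ccr9 had few UMIs. Cd74, H2-Aa, H2-Ab1 and Siglech were genes of the gate. Their part in the ratios of the factors was not tested.

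After thinning to 8000 UMIs, the interval of the KO minus WT share of cells with a UMI held 0 for all 8 factors in all 5 classes. After thinning to 4000 UMIs, it held 0 in all but 2 of these 40 cases. Spi1 in early granule cells was 17.7 points higher in KO at 4000 UMIs (4.75 to 30.2) but 1.18 points lower at 8000 (-10.4 to 8.65 for KO minus WT). Runx1 in maturing-neutrophil-like cells was at -19.2 points (-37.5 to -1.05) at 4000 UMIs, and Irf8 in monocyte/dendritic-like cells at -14.0 points (-30.8 to 3.70). At 8000 UMIs the share of cells with Runx1 was 11.2 percentage points lower in KO early granule cells (-24.3 to 2.3 for KO minus WT), 15.5 points lower in maturing-neutrophil-like cells (-36.1 to 5.5) and 17.1 points lower in monocyte/dendritic-like cells (-34.0 to 0.84). Without thinning, in which the deeper WT cells have more chances of a UMI, shares in the Cd34 gate were lower in KO by 10.1 points for Spi1, 15.1 for Cebpb and 12.6 for Irf8.

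Co-detection of 9 pairs of factors was compared with the product of the single shares, that is, with the count of cells expected if both factors fell on cells independently. Spi1 and Runx1, both widely found, met at the expected frequency, with ratios of 0.95 to 1.03 over the 5 classes and both libraries. In early granule, maturing-neutrophil-like and monocyte/dendritic-like cells Spi1 was present in 83.8% to 92.3% of cells, so that the ratio could not rise far above 1 there. In early granule cells, Cebpe and Irf8 met less often than the product: in 9 of 100 WT cells where 13.3 were expected (ratio 0.68, 0.31 to 1.23), and in 10 of 134 KO cells where 18.0 were expected (ratio 0.56, 0.27 to 0.99). Cebpe and Gfi1 met in 11 WT cells where 7.74 were expected, and in 19 KO cells where 11 were expected (ratio 1.73, 1.07 to 2.59). Gfi1 and Irf8 met in 5 WT cells where 5.58 were expected and in 2 KO cells where 5.91 were expected. Of these 3 pairs, only the KO intervals of Cebpe with Irf8 and with Gfi1 excluded a ratio of 1. The intervals of all these ratios take the expected share as fixed and leave out the counting error of the single shares. In maturing-neutrophil-like cells, Cebpe and Gfi1 met in 15 of 37 WT and 22 of 52 KO cells, where 12.97 and 20.8 were expected. Cebpe was present in 86.5% of these cells in both libraries, which left little room above the expected counts, and in WT all 15 cells with Gfi1 held Cebpe. In monocyte/dendritic-like cells, Klf4 and Irf8 met in 17 WT and 19 KO cells, where 16.5 and 18.1 were expected. The same limit holds here, since Irf8 was present in 86.8% and 86.2% of these cells.

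Cebpa and Irf8 met, in the Cd34 gate, in 11 of 484 WT cells where 4.79 were expected (ratio 2.29, 1.15 to 4.07), and in 1 of 484 KO cells where 3.64 were expected (ratio 0.27). Both expected counts lay under 10 cells, the minimum for following a ratio under the alternatives, so that these ratios were not checked there. In early granule cells they met in 6 WT cells where 6.82 were expected and in 17 KO cells where 11 were expected, and the KO ratio of 1.54 fell to 0.68 after thinning to 4000 UMIs. In stem-cell-like cells, Gfi1 and Irf8 met in 15 of 658 WT cells where 9.73 were expected and in 6 of 527 KO cells where 5.23 were expected.

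**Figure D4:**
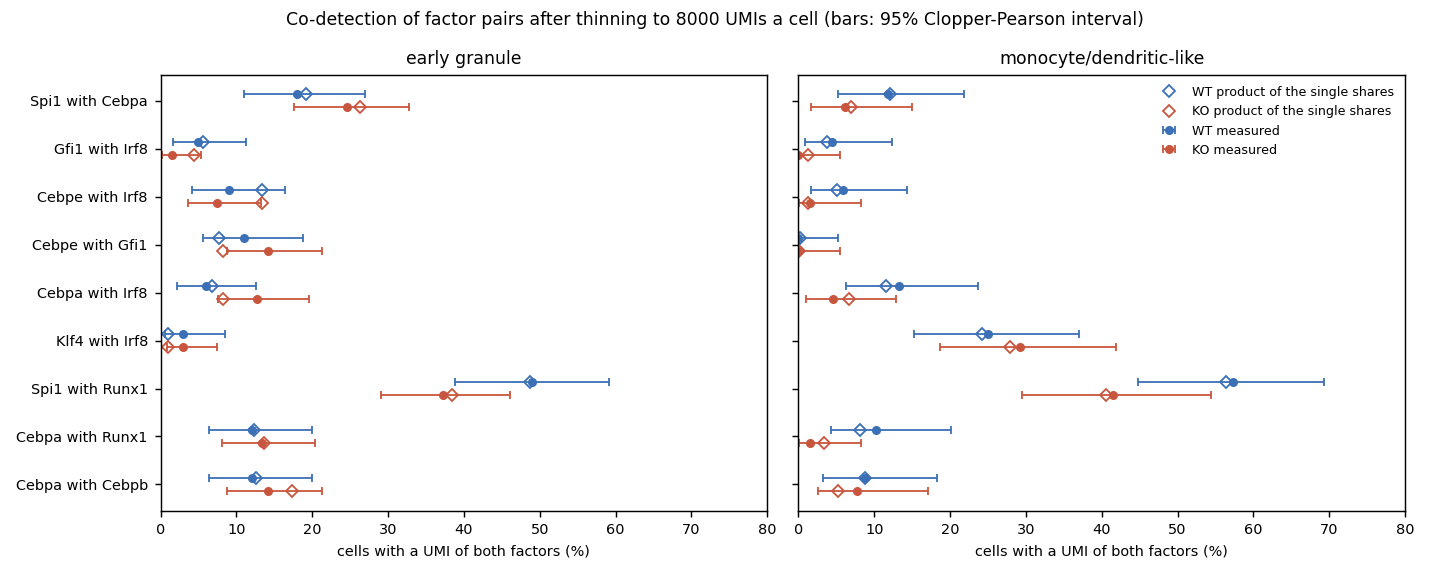
Points plot the percentage of cells with a UMI of both factors of a pair after thinning, with 95% Clopper-Pearson bars, and diamonds the product of the single shares, for early granule and monocyte/dendritic-like cells of WT and KO. In early granule cells the points of Cebpe with Irf8 lie left of their diamonds and those of Cebpe with Gfi1 right of them, in both libraries.

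To describe what went with each factor, cells of a class were split by the factor's UMIs after thinning, and levels were then taken from all UMIs. These splits were chosen after the values had been seen. Among early granule cells, 34 WT and 57 KO cells had Cebpe without Irf8, and 22 and 26 had Irf8 without Cebpe. Gfi1 was at 43.7 CPM in WT against 54.6 CPM in KO cells with Cebpe alone, against 12.5 and 13.04 CPM in cells with Irf8 alone, a 3.50-fold and 4.19-fold difference. Runx1 ran the other way, at 67.4 and 62.5 CPM against 127 and 107 CPM, which is 1.89-fold and 1.71-fold higher in cells with Irf8 alone. Fcgr3, an IgG receptor, was at 165 and 177 CPM against 41.2 and 26.1 CPM. Hdc was at 273 and 198 CPM against 19.98 and 18.3 CPM. Ms4a3, a gene of the early granule gate, was at 650.3 and 873 CPM against 179.8 and 78.3 CPM. The monocyte gate genes Csf1r and Ccr2 were higher beside Irf8: Csf1r was at 6.89 and 7.18 CPM against 26.2 and 50.9 CPM.

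Eosinophil genes fell on the Cebpe side of that split. Prg3 was at 132 CPM in WT against 158 CPM in KO cells with Cebpe alone, and Prg2 at 137 and 121 CPM, whereas both had 0 UMIs in the cells with Irf8 alone in both libraries. In the whole class Prg2 was found in 5 WT and 7 KO cells, with 164 of 180 WT UMIs in 1 cell and 76 of 181 KO UMIs in 1 cell. Prg3 was found in 13 WT and 17 KO cells.

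Among monocyte/dendritic-like cells, 19 WT and 21 KO cells had Klf4 and 49 and 44 had none. Lyz2, the monocyte lysozyme gene, was at 1086 CPM in WT against 3299 CPM in KO cells with Klf4, against 402 and 983 CPM in cells without. Cebpb was at 275 and 409.6 CPM against 166 and 189.7 CPM. Ly6c2, a surface marker gene of classical monocytes, was at 39.5 and 49.2 CPM against 7.78 and 5.93 CPM. The antigen presentation genes ran the other way. Cd74, the invariant chain, was at 9.47 and 42.5 CPM in cells with Klf4 and 128 and 184 CPM in cells without, and H2-Aa at 0 and 11.2 CPM against 67.8 and 65.2 CPM. Runx1 was at 75.8 and 51.5 CPM against 111 and 114 CPM. Of these, Ly6c2, Cd74 and H2-Aa were among the genes of the gate.

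**Figure D5:**
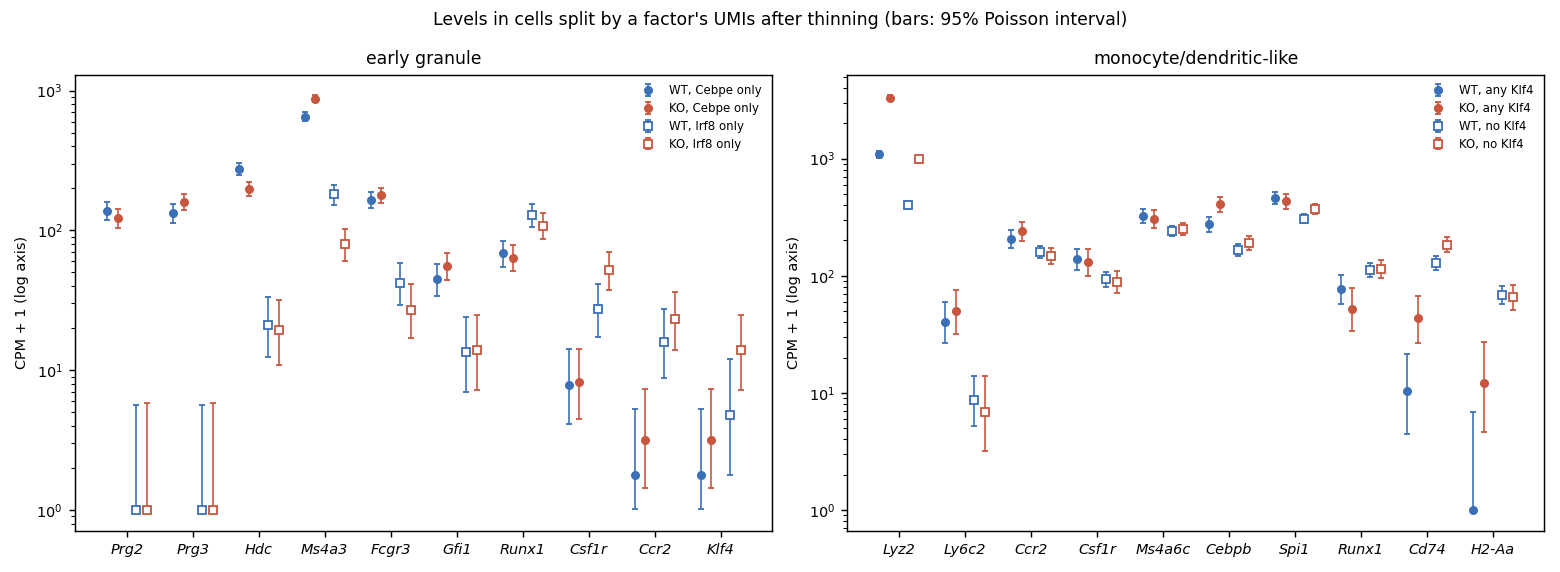
Levels (CPM + 1, log axis) of named genes are plotted in early granule cells with Cebpe alone or Irf8 alone and in monocyte/dendritic-like cells with or without Klf4, for WT and KO, with 95% Poisson bars. Gfi1 and the eosinophil genes Prg2 and Prg3 sit higher beside Cebpe, Csf1r and Runx1 beside Irf8, Lyz2 and Cebpb beside Klf4, and Cd74 and H2-Aa in cells without Klf4, in both libraries.

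In the Cd34 gate, 80 WT and 63 KO cells had Irf8 after thinning and 404 and 421 had none. Csf1r was at 26.8 CPM in WT against 15.6 CPM in KO cells with Irf8, against 6.72 and 4.41 CPM in cells without. Mpo, the myeloperoxidase of primary granules, was at 995 and 772 CPM against 581 and 540.01 CPM, and Ighm, an immunoglobulin heavy chain gene, at 111 and 93.8 CPM against 56.9 and 50.1 CPM. Spi1 was at 224 and 212 CPM against 164 and 149 CPM. Trbc2, a T cell receptor constant gene, ran the other way from Ighm, at 94.9 and 80.4 CPM against 160.1 and 165 CPM, but with cells split after thinning to 4000 UMIs it was 14.1 CPM higher beside Irf8 in WT.

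In stem-cell-like cells, 128 WT and 81 KO cells had Gfi1 and 530 and 446 had none. Mecom, a stem cell factor gene, was at 118 and 98.0 CPM in cells with Gfi1 and 66.8 and 70.6 CPM in cells without, and Procr, which encodes EPCR, at 39.5 and 42.0 CPM against 22.6 and 18.3 CPM; both genes belonged to the gate. Mllt3, which did not, was at 86.7 and 79.3 CPM against 51.2 and 52.2 CPM. Cd48, a surface protein that long-term stem cells lack, ran the other way, at 75.03 and 94.3 CPM against 111 and 125 CPM.

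Other genes of the same circuits were taken from 3 lists. Of 51 further regulators (related C/EBP, IRF, RUNX, KLF and ETS factors and their cofactors), 0 were higher and 1 lower past 1.5-fold in stem-cell-like cells of 46 with a ratio, 2 and 0 of 47 in the Cd34 gate, 1 and 1 of 41 in early granule cells, 2 and 3 of 35 in maturing-neutrophil-like cells and 6 and 3 of 44 in monocyte/dendritic-like cells. Among all genes with a ratio, the shares past 1.5-fold were 3.19% higher and 4.05% lower in stem-cell-like cells, 3.95% and 2.82% in the Cd34 gate, 4.46% and 4.34% in early granule cells, 6.35% and 8.49% in maturing-neutrophil-like cells and 7.88% and 5.94% in monocyte/dendritic-like cells. The median log2 ratio of the regulators was -0.01, 0.08, 0.02, 0.05 and 0.18 in these classes. In maturing-neutrophil-like cells Klf2, a quiescence factor gene of lymphocytes and monocytes, had 14 WT and 47 KO UMIs (log2 ratio 1.79) and Klf6 24 and 50 (1.10), whereas Id2, an inhibitor of E proteins, had 28 and 10 (-1.44). In monocyte/dendritic-like cells Gata2, a mast cell and stem cell factor gene, had 27 WT and 7 KO UMIs (-1.23). The summed mast cell and basophil markers in that class were at 18.5 CPM in WT against 3.39 CPM in KO, and their part in the Gata2 value was not tested.

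Of 20 cytokine and chemokine receptors that act upstream of these factors, 1 was higher and 1 lower of 18 in stem-cell-like cells, 0 and 2 of 18 in the Cd34 gate, 1 and 0 of 17 in early granule cells, 1 and 1 of 12 in maturing-neutrophil-like cells and 3 and 1 of 18 in monocyte/dendritic-like cells. No count exceeded 3 genes, beside backgrounds of 2.82% to 8.49% of all genes in a direction. In the Cd34 gate the lower receptors were Csf1r, given above, and Il1r1, the interleukin-1 receptor gene, with 42 WT and 16 KO UMIs (log2 ratio -0.92).

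Of 29 measured effector genes of granulocytes and monocytes, which these factors act on, 2 were higher and 2 lower of 20 in stem-cell-like cells, 4 and 1 of 21 in the Cd34 gate, 2 and 0 of 21 in early granule cells, 2 and 1 of 23 in maturing-neutrophil-like cells and 3 and 0 of 18 in monocyte/dendritic-like cells. The backgrounds in the same order were 3.19% and 4.05%, 3.95% and 2.82%, 4.46% and 4.34%, 6.35% and 8.49%, and 7.88% and 5.94% of all genes with a ratio. The median log2 ratios of the effector genes were 0.02, 0.05, 0.07, 0.15 and 0.19. Lyz2 in monocyte/dendritic-like cells had 1412 WT and 2470 KO UMIs (1.53), and the secondary granule gene Ngp in maturing-neutrophil-like cells had 171 and 36 (-2.20). Other granule genes of that class did not share the fall of Ngp. Camp was at 767 CPM in WT against 772 in KO, Lcn2 at 131 against 146 and Fcnb at 274 against 305. The sparse Ltf was at 3.57 against 10.1 CPM and Chil3 at 2.68 against 0.921 CPM. The alarmin gene S100a9 in the Cd34 gate had 12 and 24 (1.48), and Cybb, the phagocyte oxidase subunit gene, in stem-cell-like cells 21 and 3 (-2.21).

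Over 24 class profiles (12 classes in each library), the genes whose log2 level followed each factor most closely were listed by Pearson's r, as a description, since profiles share libraries and depth. Nfam1 followed Spi1 (r = 0.976), Ccl9 Cebpa (0.90), Casp1 Cebpb (0.941), Olr1 Cebpe (0.964), Pglyrp1 Gfi1 (0.938), Trps1 Irf8 (0.952), Elf1 Runx1 (0.975) and Ifi211 Klf4 (0.906). Among the 8 factors, Spi1 with Irf8 (0.853), Spi1 with Cebpb (0.852) and Irf8 with Klf4 (0.845) had the highest r, and Cebpa with Runx1 (-0.08) the lowest.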

How the data were processed

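The authors aligned the reads of each library with Cell Ranger (version 6.0.0, per the labels and file headers) to mm10 and deposited unnormalised UMI counts for each gene in each cell, in which PCR copies of a molecule are counted once. The annotation release is not given in the sources used here. Barcodes under 1000 detected genes or over 20% mitochondrial UMIs were left out (382 WT, 511 KO). Doublets called with Scrublet (scanpy 1.11.5; 3.90% of WT, 5.80% of KO cells) were kept. Cells were gated in a fixed order on marker UMIs per 10000 UMIs, with thresholds set from the marker distributions, and 3.86% to 19.1% of the cells of a class lay within 1.25 times of a threshold.

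UMIs were summed per class and library, with exact Poisson, conditional and Clopper-Pearson intervals (scipy 1.17.1). Only the conditional intervals, those of the ratios, were tested on simulated data. The simulated class sums were Poisson counts, so that UMIs gathered in a few cells were not covered by that check. For detection, cells under 8000 UMIs were left out. Named genes were the 8 factors, in each list the 3 genes with the highest and lowest ratio, and the 3 genes most similar to each factor, of which some are reported; other genes were chosen after their values were seen. The factors and lists were chosen with earlier results of these data known. Alternatives were other gate thresholds, graph clusters, doublet removal, a filter of 2000 genes, other scalings, WT thinning, other thinning depths and no UMI minimum. The restriction to female cells (Xist present, Y-linked UMIs absent) and the splits of classes were added after seeing the data.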

Additional observations from a re-analysis of the deposited data

How the results depend on the processing

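No paired analysis was possible because there is only 1 library of each genotype. Of 351 ratios of the factors under alternatives, 331 moved by less than their counting interval, 20 moved further, and 0 past 1.5-fold changed sign; of 240 differences of shares 13 moved further, and of 168 co-detection ratios 5. The number of factors past 1.5-fold was small and changed easily. In stem-cell-like cells it was 0, and 1 with graph clusters. In the Cd34 gate it was 1, with 2 at gate thresholds of 0.5 times and for the mean CPM per cell, and 0 at thresholds of 2 times, with a filter of 2000 genes, with graph clusters and among female cells. In early granule cells it was 1, and 0 at thresholds of 0.5 times and with graph clusters. In maturing-neutrophil-like cells it was 0, and 1 at thresholds of 2 times, with WT thinned and without a UMI minimum. In monocyte/dendritic-like cells it was 1, and 0 at thresholds of 0.5 times, with WT thinned and among female cells, and 2 without a UMI minimum. List medians that moved were, in the Cd34 gate, 0.19 for further regulators with graph clusters and, at thresholds of 2 times, -0.21 for receptors and -0.14 for effectors; at thresholds of 2 times also 0.085 for further regulators in early granule cells and -0.092 for effectors in maturing-neutrophil-like cells. Without a UMI minimum, gene and class pairs past 1.5-fold went from 19 to 39 for further regulators, 11 to 20 for receptors and 17 to 29 for effectors, through genes with fewer than 20 UMIs. The share over all genes was taken only with the minimum, so that these larger counts have no background and say nothing about the lists. Of 240 differences between split cells, chosen after seeing the data, 2 reversed: Trbc2 in WT cells of the Cd34 gate with minus without Irf8 went from -65.1 to 14.1 CPM after thinning to 4000 UMIs, and Runx1 in KO cells from 19.5 to -9.85 CPM at thresholds of 0.5 times. The causes were not tested, and depth limits Cebpe, Gfi1 and Klf4 where they had under 20 UMIs.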

Other observations

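Outside the myeloid path, the factors were also found in other gated classes after thinning to 8000 UMIs. Irf8 had a UMI in 34.9% of WT and 35.0% of KO endothelial cells and in 50% and 53.3% of macrophages. Cebpa, which is also a liver factor, was present in 22.6% of WT and 25.8% of KO hepatocytes. Spi1 was found in 65.4% and 59.3% of cells of the lymphoid gate and in 76.2% and 87.8% of macrophages. Runx1 was found in 73.3% and 90.5% of cells of the basophil gate.

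In cells of the megakaryocyte gate, Runx1 was present in 84.6% of WT and 54.2% of KO cells, with a KO minus WT share of -30.4 points (-45.7 to -8.4). The gate held 27 WT and 153 KO cells, and their median depths were 44817 and 10912 UMIs. The median summed level of the megakaryocyte markers was 113 and 34.3 UMIs for every 10000 UMIs of a cell, that of the erythroid markers 1.33 and 3.08, and that of the early granule markers 0 and 0.553. Cells marked as doublets made up 0% and 4.58% of the gate, and the part of these shifts in the values was not tested. Irf8, Klf4, Cebpe and Cebpa had 0 UMIs each in the WT cells and 29, 23, 16 and 12 UMIs in the KO cells. The gate summed to 1223780 UMIs in WT and 3373294 in KO, and 0 UMIs in WT allow up to 3.01 CPM. In KO, Irf8 was at 8.60 CPM (5.76 to 12.3) and Klf4 at 6.82 CPM (4.32 to 10.2). Cebpe at 4.74 CPM (2.71 to 7.70) and Cebpa at 3.56 CPM (1.84 to 6.21) had intervals that overlapped that of WT. In late erythroid cells Cebpe had 1 UMI in WT and 101 UMIs in KO, which came from 10 of 1061 cells.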
